A study of Arabidopsis thaliana with 6 samples.

Results

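The circadian clock genes of *Arabidopsis* comprised 36 loci, chosen by locus identifier from the known parts of the plant clock and its nearest outputs, among 24509 transcripts with at least 1 read in the embryo RNA-Seq libraries. All 36 had reads, and 35 had enough of them to be among the 18241 genes tested. Embryos of ecotype Col-0 were taken at 8 d after pollination by dissection of seeds, from plants homozygous for *wrinkled1-1* (*atwri1-1*) and from WT plants, with 3 biological replicates per genotype. Each replicate was a pool of 25 to 30 embryos, so a value is an average over embryos and over the cell types within them. All plants were grown at 20 °C with 16 h of light and 8 h of dark. The hour of the day at which each replicate was dissected is not given in the sources used here. *WRI1* encodes an AP2-type transcription factor known for activating fatty acid synthesis genes in maturing seeds.

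The plant clock is a set of transcription factors that repress one another in turn through the day. *CCA1* and *LHY*, expressed around dawn, repress evening genes. The pseudo-response regulators *PRR9*, *PRR7*, *PRR5* and *TOC1* follow one another through the day and repress *CCA1* and *LHY*, and the evening complex of ELF3, ELF4 and LUX acts at night. A clock gene can therefore differ strongly between samples taken at different hours. Evening genes often carry the evening element, a short motif bound by CCA1, LHY and REVEILLE factors, and many light- and clock-regulated genes carry a G-box, bound by bHLH and bZIP factors.

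Reads counted on transcripts numbered 8510887 to 18933870 per library, so that 3 reads corresponded to between 0.148 and 0.338 CPM (reads of a gene scaled to a common library size). Expression is given below as CPM, with library sizes scaled by trimmed mean of M values (TMM), and differences between genotypes as the log2 fold change of *atwri1-1* minus WT with its standard error (SE). A gene was called when its adjusted p was at most 0.05 and it differed by more than 2-fold. *WRI1* mRNA itself was at 1256, 1100 and 1042 CPM in the libraries labelled *atwri1-1* and at 186, 148 and 166 CPM in WT, a log2 fold change of 2.76 (SE 0.16, adjusted p = 0.000226). The mRNA level thus goes against a loss of the transcript, and *atwri1-1* below stands for the libraries labelled so, as every direction rests on that label. WT replicate 1 stood apart from the other WT libraries, with a chi-square per degree of freedom of 88.7 and 78.4 against them, where WT replicates 2 and 3 gave 6.95. Summed embryo markers lay between 4130 and 7470 CPM in *atwri1-1* libraries and between 4030 and 6190 CPM in WT, with none of the 7 at 0. The 6 seed coat markers summed to between 134 and 284 CPM and to between 137 and 183 CPM. The 5 endosperm markers summed to between 51.2 and 196 CPM and to between 48.2 and 351 CPM, and 2 of these, *AGL62* and *FWA*, were called higher in *atwri1-1* libraries, on 3 to 8 reads per WT library. The call of *AGL62* ended under the replicate block (adjusted p = 0.0544). Fewer cells of a type and less RNA per cell cannot be told apart in such pooled material, and the part of the markers in the clock gene results was not tested.

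Most clock genes were not called between the genotypes, while many differed strongly between replicates within each genotype. With 3 libraries per genotype, the lack of a call does not show the lack of a difference. Of 35 clock genes tested, 1 (*ELF4*) was called lower in *atwri1-1* libraries and 0 were called higher, with 5.31% of all genes tested called lower and 1.08% called higher. At an unadjusted p below 0.05 by edgeR's quasi-likelihood test there were 3 lower and 2 higher clock genes, against 15.3% of all genes lower and 9.86% higher. These are small counts, and no test set them against the background. DESeq2 and limma-voom also called 0 higher, and edgeR's exact test called 1, *ASG4*. With the replicate number as a block, 1 was called lower and 1 higher, *CCA1*. The median log2 fold change of the clock genes was -0.050, against -0.0070 over all genes tested. The values of the 3 *atwri1-1* libraries all lay below those of WT for 3 clock genes (*ELF4*, *FKF1* and *CDF2*), as they did for 18.9% of all genes, and all above for 3 (*ASG4*, *PRR7* and *GI*), as for 16.1% of all genes. Both shares of the clock genes were below the background. Compared within same-numbered replicates, 12 of 35 clock genes (34.3%) were lower in *atwri1-1* in all 3 pairs, against 25.8% of all genes, 8 were higher in all 3 pairs, against 24.8%, and 15 were mixed. With libraries scaled by size only, 9 were lower and 15 higher in all 3 pairs, so the balance of these counts rests on the scaling.

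**Figure D1:**
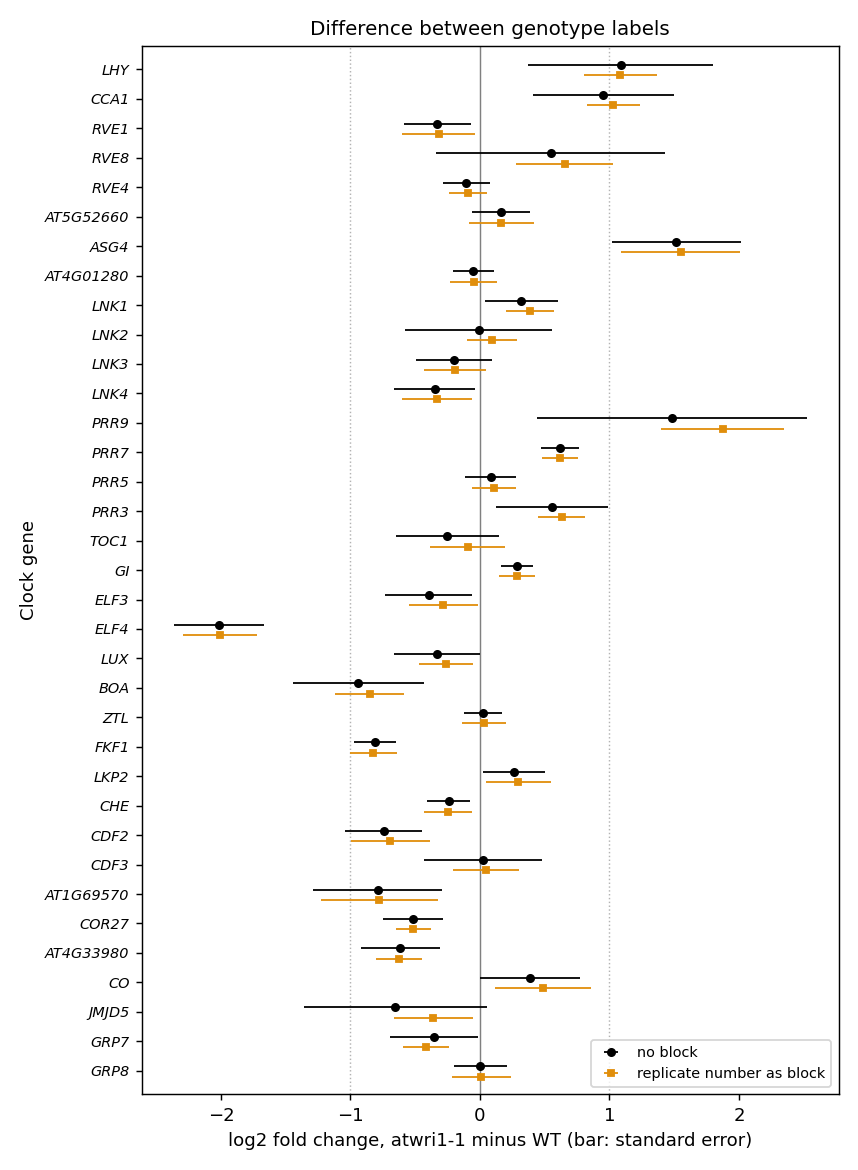
Log2 fold change (*atwri1-1* minus WT, horizontal axis) of each of the 35 clock genes tested, in order of role from the morning MYB factors at the top. Circles are the fit without a block and squares the fit with the replicate number as a block, bars are SE, and dotted lines mark a 2-fold difference. *ELF4* lies farthest to the left, at -2.02, and the bars of *LHY*, *CCA1*, *LNK2*, *PRR9*, *PRR3* and *JMJD5* are shorter in the fit with the block.

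The sequence around the transcription start was read for all 36 genes from the TAIR10.1 assembly (RefSeq), as a window of 250 bases before to 50 bases after the start of the counted transcript. The evening element AAAATATCT, on either strand, was in the window of 11 clock genes (30.6%), against 2.77% of 27442 protein-coding genes. The G-box CACGTG, which reads the same on both strands, was in 18 (50.0%), against 7.68%. The CCA1 binding site AAAAATCT, whose letters neither contain nor lie within the evening element, was in 13.9% against 7.86%, the LUX site GATACG in 16.7% against 5.57% and its variant GATTCG in 11.1% against 9.63%. The AW Box, the site known for WRI1 itself, was in 11.1% against 12.2%, and the CNC Box in 22.2% against 14.7%. A match is a description of the letters and not evidence of binding. *PRR5*, *GRP8* and *AT4G33980* also held the evening element and are not printed, and *PRR5* and *GRP8* did not follow the replicate pattern described further below. The stretches below are of genes picked for that pattern, and of *FKF1*, which differed between the genotypes. The evening element is in capitals, 5′ to 3′ on the strand named.
*TOC1* (chr5:24674802-24674831, minus strand): tcatcttggagAAAATATCTcatgatattt
*BOA* (chr5:24003835-24003864, minus strand): ctagataatctAAAATATCTtttacccgca
*LUX* (chr3:17182979-17183008, plus strand): tagaagatctAAAATATCTagctaactcgt
*JMJD5* (chr3:7275645-7275674, plus strand): atagatacgaAAAATATCTgatcctaatca
*GRP7* (chr2:9266569-9266598, minus strand): gtcccaagatAAAATATCTtttctcgcatc
*COR27* (chr5:17199930-17199959, plus strand): tcttcaactgcAAAATATCTtccaccgtcc
*PRR9* (chr2:19232623-19232652, minus strand): tcacaaccacgAAAATATCTtctcagagaa
*FKF1* (chr1:25508443-25508472, minus strand): gatattccgagAAAATATCTagcctactca

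For the genes high in replicate 1 by over 1 log2 in both genotypes that hold a G-box, its stretch is given in the same way. The G-box is in capitals, in the direction of the gene. *CDF3*, also high in replicate 1, held neither a G-box nor an evening element in its window. The element lay 111 bases before the start in *LHY*, 193 before it in *CCA1*, 19 before it in *LNK2*, and in *RVE8* it began at base 12 of the transcript. *PRR9* held it 2 times, 244 and 172 bases before the start, beside its evening element at base 27 of the transcript.
*LHY* (chr1:37934-37963, minus strand): ctacaatatcacCACGTGtcgatctgcgat
*CCA1* (chr2:19245386-19245415, plus strand): tagtgtatcagaCACGTGtcgacaaactgg
*RVE8* (chr3:2946238-2946267, plus strand): actacaagtctaCACGTGcttcaagcttga
*LNK2* (chr3:20179029-20179058, minus strand): ccactcgtttggCACGTGaccatttcatac
*PRR9* (chr2:19232423-19232452, plus strand): ttaggttaatgaCACGTGttaaggtggacc

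The order of the levels was set per length of the counted transcript, as CPM per kb. The glycine-rich RNA-binding protein genes stood at the top, *GRP7* with 1309 ± 316 CPM per kb (SD, n = 3) in WT and *GRP8* with 229 ± 49. *COR27* followed at 63.9 ± 14.3 CPM per kb, then *TOC1* at 48.0 ± 24.8 and *JMJD5* at 43.1 ± 31.9, which do not differ beyond their spread. *LHY* and *CCA1* were low in WT, at 1.69 ± 1.35 and 3.30 ± 2.27 CPM per kb, and *PRR9* was lower still, at 0.653 ± 0.898. The lowest was *CDF1*, a Dof repressor of *CO*, at 0.386 ± 0.344 CPM per kb. It was not tested, with 9, 11 and 8 reads in *atwri1-1* libraries and 12, 8 and 0 reads in WT, and the 0 allows a level of up to 0.259 CPM.

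Among the morning genes, *CCA1* and *LHY* had higher means in *atwri1-1* libraries, and neither was called. *CCA1* mRNA was at 24.6, 10.9 and 9.81 CPM in *atwri1-1* replicates 1 to 3 and at 13.8, 5.66 and 3.80 CPM in WT replicates 1 to 3. Replicate 1 was the highest of each genotype, each *atwri1-1* library was above the WT library of the same number, and the groups overlapped. The log2 fold change was 0.95 (SE 0.54, adjusted p = 0.326), and with the replicate number as a block it was 1.03 (SE 0.21, adjusted p = 0.0357), which passed both thresholds. *LHY* mRNA was at 19.0, 4.49 and 5.98 CPM in *atwri1-1* and at 8.72, 3.1 and 1.90 CPM in WT, again with replicate 1 on top in each genotype and all 3 pairs higher in *atwri1-1*. Its log2 fold change was 1.09 (SE 0.71, adjusted p = 0.392), and under the block 1.08 (SE 0.28, adjusted p = 0.0739), which did not pass. Without WT replicate 1 the log2 fold change of *CCA1* was 1.67 (adjusted p = 0.0358), a call. That fit kept the high *atwri1-1* replicate 1, and without both replicate 1 libraries the log2 fold change was 1.13.

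**Figure D2:**
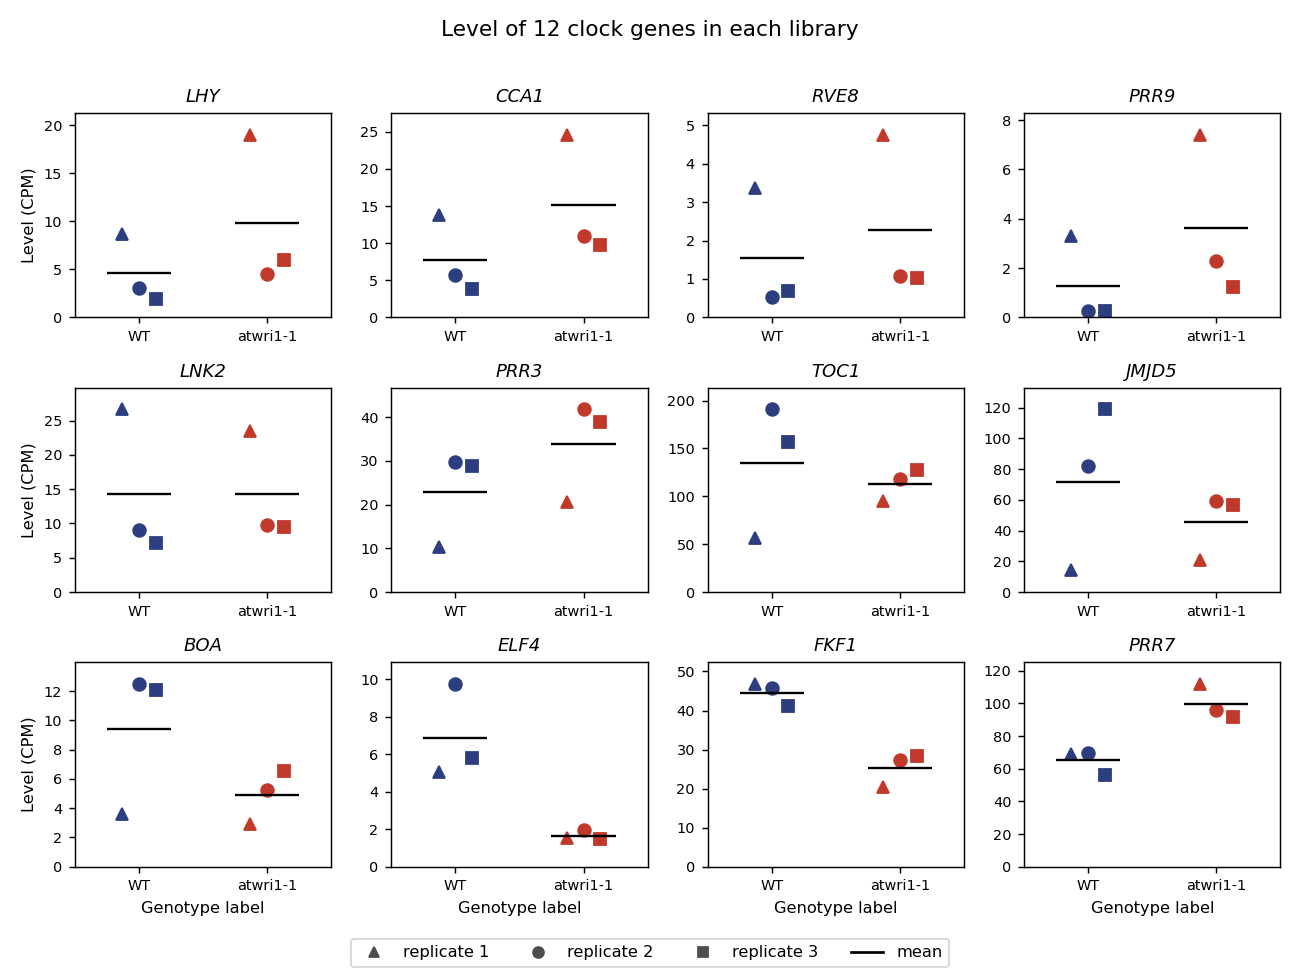
Level (CPM, vertical axis from 0) of 12 clock genes in each library, with WT on the left and *atwri1-1* on the right of each panel. Triangles, circles and squares are replicates 1, 2 and 3, and lines are means. Triangles lie above the other points in both genotypes for *LHY*, *CCA1*, *RVE8*, *PRR9* and *LNK2* and below them for *PRR3*, *TOC1*, *JMJD5* and *BOA*, while the genotypes separate for *ELF4*, *FKF1* and *PRR7*.

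The REVEILLE group holds MYB-like factors related to CCA1, of which RVE8 and RVE4 are known as activators of evening genes, and 0 of its 6 genes were called. *RVE8* was at 4.76, 1.08 and 1.01 CPM in *atwri1-1* and 3.38, 0.531 and 0.690 CPM in WT, with replicate 1 far above the others in both genotypes and a log2 fold change of 0.55 (SE 0.88, adjusted p = 0.736). *ASG4* was at 3.11, 2.76 and 1.69 CPM in *atwri1-1* and 0.55, 1.5 and 0.604 CPM in WT, so the groups did not overlap, and its log2 fold change of 1.52 (SE 0.50) had an adjusted p of 0.110. The other 4, *RVE1* (known for linking the clock to auxin), *RVE4*, *AT5G52660* and *AT4G01280*, had log2 fold changes between -0.33 and 0.16. *RVE4* ranged from 23.5 to 34.4 CPM over the 6 libraries, *AT4G01280* from 12.2 to 14.8 CPM, *AT5G52660* from 5.81 to 8.78 CPM and *RVE1* from 4.06 to 6.55 CPM. Counts of *RVE1* and *AT4G01280* are less certain, since 89.7% and 93.4% of their 31-base words are in no other gene's transcript.

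The LNK genes, whose proteins are coactivators that work with RVE8, were highest in replicate 1 of each genotype, with 0 of 4 called. *LNK2* was at 23.5, 9.81 and 9.47 CPM in *atwri1-1* and 26.6, 9.11 and 7.16 CPM in WT, close to equal between the genotypes within each replicate number, with a log2 fold change of -0.011 (SE 0.57). The sign of that value turned under the replicate block, to 0.094. *LNK1* was at 44.4, 34.4 and 36.1 CPM and 45.2, 23.5 and 23.2 CPM, with a log2 fold change of 0.32 (SE 0.28, adjusted p = 0.521). Its counts are less certain, with 92% of its 31-base words in no other gene's transcript. *LNK3* and *LNK4*, the shorter relatives, were between 2.71 and 6.6 CPM in all libraries, lower in *atwri1-1* in all 3 pairs and highest in replicate 1 of each genotype.

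Among the pseudo-response regulators, *PRR9* was highest and *PRR3* and *TOC1* were lowest in replicate 1 of both genotypes, and *PRR7* and *PRR5* followed neither pattern. *PRR7*, a daytime repressor of *CCA1* and *LHY*, was at 112, 95.8 and 91.8 CPM in *atwri1-1* and at 69.0, 69.9 and 56.2 CPM in WT. The groups did not overlap, and the log2 fold change of 0.62 (SE 0.15) passed the adjusted p (0.0395) but not the 2-fold minimum. *PRR9*, the earliest of these repressors, was at 7.41, 2.27 and 1.24 CPM in *atwri1-1* and at 3.30, 0.265 and 0.259 CPM in WT, where replicates 2 and 3 rest on 3 reads each. It was higher in *atwri1-1* in all 3 pairs, with overlapping groups and a log2 fold change of 1.48 (SE 1.04, adjusted p = 0.426). Of the 31-base words of *PRR9*, 64.5% are in no other gene's transcript, the shared ones being with *AT2G46670* and *AT4G38190*, so its counts are less certain. Without WT replicate 1 its log2 fold change was 3.74 (adjusted p = 0.0291), a call that rests on those low WT counts. That fit kept the high *atwri1-1* replicate 1, and without both replicate 1 libraries the log2 fold change was 2.74. *PRR3*, known for protecting TOC1 from degradation, was at 20.6, 41.7 and 38.9 CPM in *atwri1-1* and 10.2, 29.8 and 28.9 CPM in WT, lowest in replicate 1 of each genotype and higher in *atwri1-1* in all 3 pairs (log2 fold change 0.56, SE 0.43, adjusted p = 0.467). *TOC1* was at 94.8, 118 and 127 CPM in *atwri1-1* and 56.7, 191 and 157 CPM in WT, so that the *atwri1-1* libraries lay within the range of WT (log2 fold change -0.25, SE 0.40). *PRR5* was between 30.7 and 48.6 CPM in all libraries, with a log2 fold change of 0.082 (SE 0.20).

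The evening complex held the called gene. *ELF4*, a small nuclear protein that the complex needs to repress its targets, was at 1.55, 1.97 and 1.47 CPM in *atwri1-1* and at 5.03, 9.73 and 5.78 CPM in WT. These were 17, 40 and 13 reads against 64, 110 and 67 reads, and each *atwri1-1* library lay below every WT library. The mean was 1.66 ± 0.27 CPM against 6.85 ± 2.53 CPM (SD, n = 3), 4.11-fold lower, with a log2 fold change of -2.02 (SE 0.35, adjusted p = 0.0127). Leaving out *atwri1-1* replicate 1, 2 or 3 gave adjusted p of 0.0656, 0.0547 and 0.0686, which ended the call each time, with log2 fold changes of -1.97, -2.17 and -1.94. *ELF4* lies at chr2:16734294-16734953 on the minus strand (TAIR10.1), and 100% of its 31-base words are in no other gene's transcript.

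The other members of the complex were not called. *ELF3*, the scaffold of the complex, was at 53.8, 60.1 and 62.6 CPM in *atwri1-1* and 37.9, 99.5 and 94.5 CPM in WT, so the *atwri1-1* libraries lay within the WT range (log2 fold change -0.39, SE 0.34, adjusted p = 0.512). *LUX*, its DNA-binding member, was at 16.3, 23.1 and 22.4 CPM and 13.7, 31 and 33.3 CPM (-0.33, SE 0.33). *BOA*, a close relative of *LUX*, was at 2.93, 5.23 and 6.54 CPM in *atwri1-1* and 3.61, 12.5 and 12.1 CPM in WT, lower in *atwri1-1* in all 3 pairs (log2 fold change -0.94, SE 0.50, adjusted p = 0.297). Without WT replicate 1 *BOA* was called lower, at -1.33 (adjusted p = 0.0178). That fit kept the low *atwri1-1* replicate 1, and without both replicate 1 libraries the log2 fold change was -1.09. Of the 31-base words of *BOA*, 92.9% are in no other gene's transcript, part of the rest being shared with *LUX*. The 3 genes shared their lowest value in replicate 1 of each genotype, and *ELF4* did so in WT and not in *atwri1-1*.

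*FKF1*, of the family of blue-light receptor F-box proteins, stood at 20.4, 27.4 and 28.3 CPM in *atwri1-1* and 46.7, 45.6 and 41.1 CPM in WT. The groups did not overlap, and the log2 fold change of -0.81 (SE 0.16) passed the adjusted p (0.0226) but not the 2-fold minimum. Its relatives stood apart from it. *ZTL*, which marks TOC1 for degradation, was between 18.0 and 22.6 CPM in all libraries (log2 fold change 0.026, SE 0.15), and *LKP2* between 8.01 and 15.3 CPM (0.26, SE 0.24). *GI*, the partner that stabilizes ZTL in light, was at 58.1, 59.6 and 67.8 CPM in *atwri1-1* and 47.5, 53.6 and 50.6 CPM in WT, with no overlap, a log2 fold change of 0.29 (SE 0.12) and an adjusted p of 0.205.

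The CDF factors, Dof repressors of *CO* that FKF1 removes, gave 0 calls among the 3 tested. *CDF2* was at 4.57, 4.93 and 5.86 CPM in *atwri1-1* and 12.1, 7.08 and 6.47 CPM in WT, with no overlap and a log2 fold change of -0.74 (SE 0.30, adjusted p = 0.172). *CDF3* was near equal between the genotypes and highest in replicate 1 of each, at 6.68, 2.91 and 3.61 CPM and 6.6, 2.65 and 3.62 CPM. *AT1G69570*, a further Dof gene, was between 0.345 and 1.29 CPM. *CO*, the photoperiod regulator of flowering, was at 7.5, 7.40 and 6.76 CPM in *atwri1-1* and 2.51, 7.16 and 6.90 CPM in WT, so WT replicate 1 alone was low (log2 fold change 0.39, SE 0.39), with 82.1% of its 31-base words in no other gene's transcript.

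*COR27*, a cold- and light-responsive repressor of clock genes, was at 35.1, 54.6 and 51.5 CPM in *atwri1-1* and 50.7, 80.3 and 70.9 CPM in WT. *AT4G33980*, whose closest protein match in the annotation is COR27, was at 6.4, 11.9 and 9.81 CPM and 10.1, 18.8 and 14.4 CPM. Both genes were lower in *atwri1-1* in all 3 pairs with overlapping groups, and their log2 fold changes were -0.51 (SE 0.23, adjusted p = 0.220) and -0.61 (SE 0.31, adjusted p = 0.264). *JMJD5*, a Jumonji-domain gene known for cycling with *TOC1*, was at 20.6, 59.4 and 56.7 CPM in *atwri1-1* and 14.1, 82.3 and 119 CPM in WT, a spread between replicates that exceeded the difference of the genotypes (log2 fold change -0.65, SE 0.71). *CHE*, a TCP factor that represses *CCA1*, was between 19.7 and 30.4 CPM (-0.24, SE 0.16). *GRP7*, an RNA-binding protein that feeds back on its own splicing, was at 649.7, 1499 and 1437 CPM in *atwri1-1* and 1106, 1793 and 1677 CPM in WT, lowest in replicate 1 of each genotype and lower in *atwri1-1* in all 3 pairs (-0.35, SE 0.34). *GRP8*, its close relative, was between 207 and 315 CPM (0.0039, SE 0.20).

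Clock genes varied more between replicates of a genotype than genes as a whole. The within-genotype SD of log2 CPM had a median of 0.410 over the clock genes against 0.277 over all genes tested, and 25 of 35 (71.4%) were above the latter. *PRR9* was at the percentile 99.4 of all genes in this spread, *JMJD5* at 99.0, *RVE8* at 98.8, *LHY* at 98, *LNK2* at 95.6 and *CCA1* at 94.8. At the other end *GI* was at 8.2 and *ZTL* at 15.7, so steady and variable clock genes came from the same libraries.

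The deviations were shared by libraries of the same number. Over the 35 clock genes, deviations of log2 CPM from the genotype mean had a Pearson r of 0.845 between the replicate 1 libraries of the genotypes, 0.733 for replicate 2 and 0.797 for replicate 3. Over all 18241 genes these were 0.273, 0.280 and 0.236. Between a replicate 1 library and a library of another number in the other genotype, r over the clock genes was from -0.805 to -0.724, whereas replicates 2 and 3 went together across genotypes, at 0.603 and 0.579. The 3 deviations of a gene within a genotype sum to 0, so these values are not independent of one another, and all genes share the same 6 libraries. The title and the description of WT replicate 3 give different numbers, and the contrast of replicate 1 with the other 2 does not depend on which is right.

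**Figure D3:**
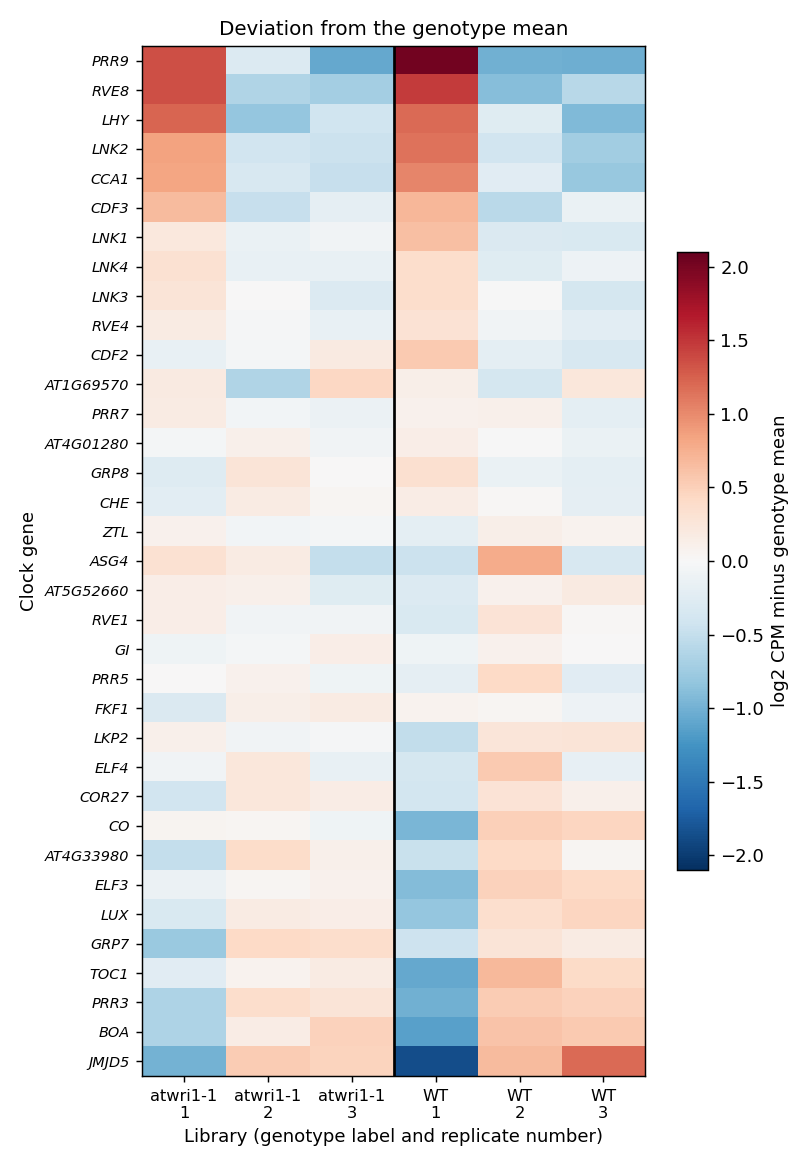
Deviation of log2 CPM from the genotype mean (colour, red higher and blue lower) for the 35 clock genes (rows, ordered by the mean offset of replicate 1) in the 6 libraries (columns, genotypes divided by the line). The replicate 1 columns of both genotypes run from red at the top (*PRR9*, *RVE8*, *LHY*) to blue at the bottom (*PRR3*, *BOA*, *JMJD5*), and the columns of replicates 2 and 3 run mostly the other way.

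Measured as the log2 CPM of replicate 1 minus the mean of replicates 2 and 3, the offset was above 1 in both genotypes for 6 of 35 clock genes, against 1.14% of all genes tested, and below -1 in both for 1, against 0.855%. This contrast was not among the planned measures. *PRR9* had offsets of 2.04 in *atwri1-1* and 3.04 in WT, *RVE8* of 2.02 and 2.21, and *LHY* of 1.85 and 1.78. *LNK2* had 1.27 and 1.70, *CCA1* 1.24 and 1.54, and *CDF3* 1.01 and 1.05. Morning expression is known for *LHY*, *CCA1*, *RVE8*, *LNK2* and *PRR9* in plants kept in light and dark. The gene below -1 in both was *JMJD5*, with -1.49 and -2.79. *BOA* had -0.96 and -1.72, *PRR3* -0.96 and -1.51, *TOC1* -0.37 and -1.61, *LUX* -0.48 and -1.22, *ELF3* -0.19 and -1.35 and *GRP7* -1.18 and -0.65. Evening expression is known for *TOC1*, *LUX*, *BOA* and *JMJD5*. Offsets were smaller or of mixed sign in other clock genes, so the pattern did not cover the clock as a whole. Among these were further genes known for afternoon or evening expression, *GI*, *FKF1*, *PRR5* and *ELF4*. *ELF4* of the evening complex had -0.12 in *atwri1-1* and -0.56 in WT, *GI* -0.13 and -0.13 and *FKF1* -0.45 and 0.11. *PRR5* had 0.00037 and -0.28, and *RVE1* 0.21 and -0.48.

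Replicate 1 was the highest of its genotype in both genotypes for 10 clock genes (28.6%) and the lowest in both for 10 (28.6%), against 18.4% and 18.5% of all genes. The size of the offset had a median of 0.409 in *atwri1-1* and 0.668 in WT, against 0.175 and 0.475 over all genes. Replicates 2 and 3 differed less. The size of the difference between them had a median of 0.131 in *atwri1-1* and 0.156 in WT over the clock genes, close to the 0.154 and 0.156 over all genes, although the signed differences went together across the genotypes, with r = 0.464 against 0.249 over all genes. Other measures moved with the replicate number too. Of the 4 seed coat markers tested, *TT10* had offsets of 1.25 in *atwri1-1* and 1.02 in WT and *BAN* of 1.14 and 0.70, whereas *MUM4* (0.73 and -0.67) and *TTG2* (-0.14 and 0.12) had opposite signs in the genotypes. Of the 4 endosperm markers tested, *EPR1* had 1.33 and 2.58, *FWA* 1.34 and 0.25, *ZOU* 1.40 and -0.31 and *AGL62* -0.16 and -0.12. The 7 embryo markers held the largest offset, *CRU3* with -5.36 in *atwri1-1*, on 9 reads in replicate 1, and -0.72 in WT. *CRA1* had -2.17 and -0.69, *SESA3* -0.81 and 0.72 and *LEC1* 0.35 and 0.84. *ABI3*, *FUS3* and *OLEO1* lay between -0.21 and 0.14 in both genotypes. The row of reads assigned to no transcript was 86.6% of *atwri1-1* replicate 1 and between 39.6% and 45.0% in the other libraries. Their part in the pattern was not tested, and the hour of dissection cannot be told apart from anything else that the replicate 1 libraries shared.

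**Figure D4:**
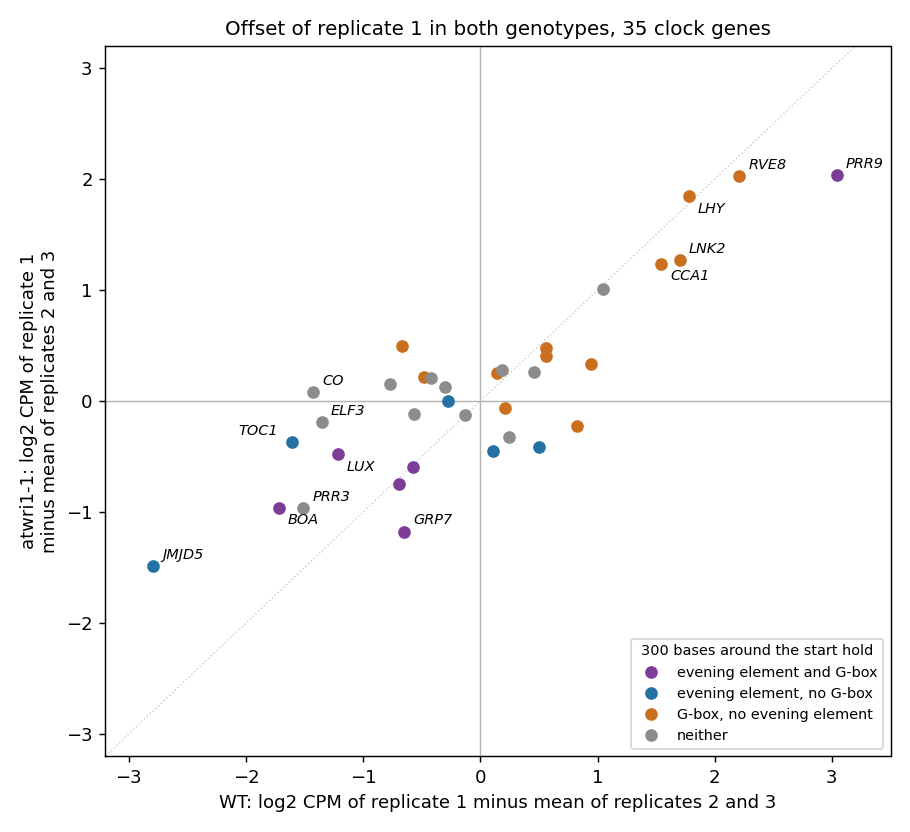
Offset of replicate 1 (log2 CPM of replicate 1 minus the mean of replicates 2 and 3) in WT (horizontal axis) and in *atwri1-1* (vertical axis) for 35 clock genes, coloured by the motif in the 300 bases around the start, with the dotted line marking equal offsets. *LHY*, *CCA1*, *RVE8*, *LNK2* and *PRR9* lie at the upper right and *JMJD5*, *BOA* and *PRR3* at the lower left, with r = 0.845 over the genes. This is the r given for the replicate 1 deviations, of which the offset is a fixed multiple.

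The offsets were also counted by the motifs shown above. Over all genes tested, replicate 1 was above the mean of the others in both genotypes for 27.6% and below it in both for 27.3%, and these shares were not computed by motif. Of the 12 genes with a G-box and no evening element, 8 were higher in replicate 1 in both genotypes and 0 were lower in both, with median offsets of 0.45 in *atwri1-1* and 0.69 in WT. Of the 6 with both motifs, 5 were lower in both genotypes (*BOA*, *LUX*, *COR27*, *AT4G33980* and *GRP7*) and *PRR9* was higher in both, with medians of -0.67 and -0.67. Of the 5 with an evening element alone, *TOC1* and *JMJD5* were lower in both and 0 were higher in both, with medians of -0.41 and -0.28. The 12 tested genes with neither had 4 lower and 3 higher in both, and medians of 0.10 and -0.36. These are counts over few genes that share 6 libraries, given with no test.

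The fit with the replicate number as a block gave smaller errors for most clock genes. That follows from the deviations shared by same-numbered libraries and is no separate support for them. The block also leaves fewer degrees of freedom for the test. The SE of the log2 fold change was smaller under the block for 25 of 35 clock genes (71.4%), against 51.0% of all genes, and its median went from 0.313 to 0.241, against 0.226 to 0.212 over all genes. The SE of *LNK2* went from 0.57 to 0.19 and that of *JMJD5* from 0.71 to 0.31, with no call for either. *CCA1* was the clock gene that gained a call. *PRR7* was at an adjusted p of 0.0529 under the block, against 0.0395 without it, and *FKF1* at 0.0481. When both replicate 1 libraries were left out, an alternative chosen after seeing the data, *PRR9* (2.74, adjusted p = 0.0160) and *CCA1* (1.13, adjusted p = 0.0171) were called higher and *ELF4* (-2.13, adjusted p = 0.0066) and *BOA* (-1.09, adjusted p = 0.00802) lower. With the adjusted p alone and no fold minimum, 8 of 35 clock genes were then lower and 5 higher, where 2463 and 1685 of 18441 genes tested were. With all libraries and no block they were 2 and 1 of 35, against 1369 and 485 of 18241. The share of clock genes lower was thus slightly below that of all genes with all libraries and above it without replicate 1. These are small counts, no test set them against the background, and no result about the clock genes is drawn from them.

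Genes around the clock were compared by 3 lists. Of 18 further clock-related genes tested, 0 were called by the quasi-likelihood test, with 5 lower and 0 higher at an unadjusted p below 0.05 (15.3% and 9.86% of all genes) and a median log2 fold change of -0.069. *CKB3*, a regulatory subunit of the casein kinase that phosphorylates CCA1, was at 82.1, 80 and 72.2 CPM in *atwri1-1* and 143, 146 and 142 CPM in WT, a log2 fold change of -0.88 (SE 0.12, adjusted p = 0.00468) that stayed under the 2-fold minimum. *LWD1*, a WD-repeat coactivator, was likewise below it, at -0.62 (SE 0.12, adjusted p = 0.0176).

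Of 18 light input genes tested, 4 were called lower and 0 higher (5.31% and 1.08% of all genes), with a median log2 fold change of -0.16. At an unadjusted p below 0.05, 5 were lower and 2 higher (*FAR1* and *PIF3*), against the same 15.3% and 9.86% of all genes. Of the called genes, *PIF4*, *PIF1* and *PIF5* encode phytochrome-interacting factors, bHLH proteins that bind the G-box and are degraded in light. *PIF4* was at 0.915, 0.789 and 0.902 CPM in *atwri1-1* and 5.26, 6.46 and 6.82 CPM in WT (log2 fold change -2.83, SE 0.29, adjusted p = 0.00172), on 10, 16 and 8 reads in *atwri1-1*. *PIF1* was at 4.57, 4.04 and 4.28 CPM against 7.15, 15.9 and 13.4 CPM (-1.50, SE 0.32, adjusted p = 0.0269). *PIF5* had 5, 2 and 1 reads in *atwri1-1* and 26, 32 and 24 reads in WT (-3.40, SE 0.60, adjusted p = 0.0134), a fold that rests on very few reads. The evening complex is known to repress *PIF4* and *PIF5*. Here these 2 genes and *ELF4* were all lower, *ELF3* and *LUX* were not called, and a link between them was not tested. *CRY2*, a blue-light receptor, was at 17.5, 18.7 and 23.2 CPM against 41.6, 47.1 and 41.0 CPM (-1.13, SE 0.16, adjusted p = 0.00548), while the 5 phytochrome genes had log2 fold changes between -0.13 and 0.25.

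Of 9 clock output genes tested, 4 were called lower and 0 higher (5.31% and 1.08% of all genes), with 5 lower and 0 higher at an unadjusted p below 0.05 (15.3% and 9.86%) and a median log2 fold change of -1.18. *CCL*, a gene known for an unstable mRNA under clock control, was at 1.92, 2.47 and 1.69 CPM in *atwri1-1* and 73.4, 119 and 63.6 CPM in WT, 42.1-fold lower (log2 fold change -5.35, SE 0.32, adjusted p = 0.00023). *COL1*, a relative of *CO*, was at 10.3, 5.18 and 6.54 CPM against 35.6, 34.6 and 37.2 CPM (-2.29, SE 0.26, adjusted p = 0.00238). The catalase genes *CAT2* and *CAT3*, known for opposite phases in the day, were both lower, at -1.61 (SE 0.17, adjusted p = 0.00172) and -1.67 (SE 0.31, adjusted p = 0.0162). *BBX24*, a B-box gene, was at 57.3, 46.2 and 41.8 CPM against 178, 78.0 and 73.2 CPM, and was called lower only under the block (-1.07, adjusted p = 0.0372, against 0.0832 without it).

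**Figure D5:**
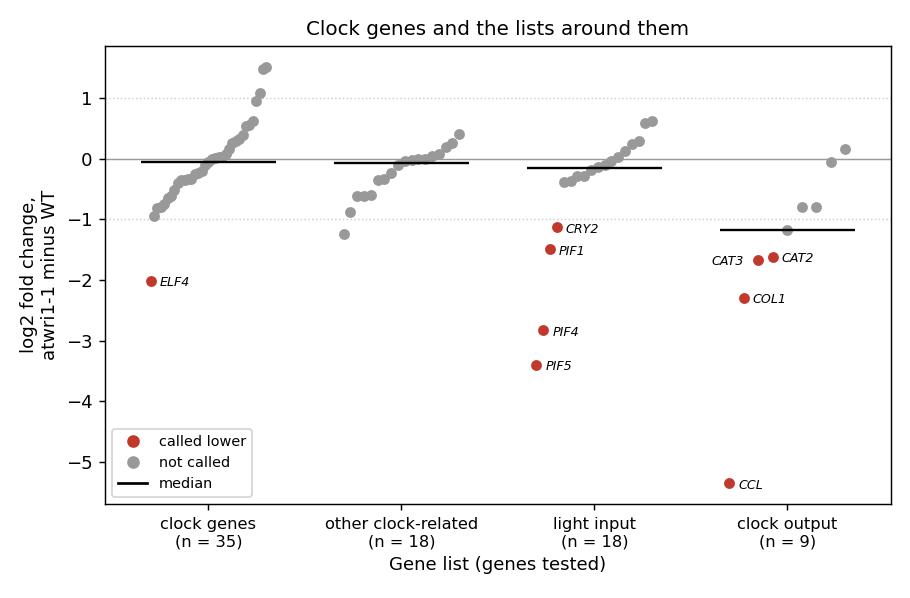
Log2 fold change (*atwri1-1* minus WT, vertical axis) of each gene tested in the clock gene list and in 3 lists around it, with called genes named in red, other genes in grey and lines at the list medians. *ELF4* is the called clock gene, the further clock-related list has none, and *CCL* lies lowest at -5.35.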

How the data were processed

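RNA-Seq was made by the authors from 3 replicates labelled *atwri1-1* and 3 WT replicates. The authors mapped reads to TAIR10 transcripts with Bowtie (0.12.7 in the submitters' processing notes), discarded ambiguous reads and deposited unnormalized counts for each transcript. A deposited table of normalized values was not used. Columns that map to no sample numbered 0. The row that names no transcript held 39.6% to 86.6% of a file's total and was left out.

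Tests used edgeR 4.0.16 in R 4.3.3 (filterByExpr, TMM, glmQLFit and glmQLFTest, no block, Benjamini-Hochberg adjustment over 18241 genes). Log2 CPM used a prior count of 2. Alternatives covered filters, scalings, DESeq2 1.42.0, limma-voom 3.58.1, the exact test, thresholds, the replicate number as a block and leaving out single libraries. Leaving out both replicate 1 libraries, and wider promoter windows, were added after seeing the data. The offset of replicate 1, and its counts by motif, were not among the planned measures. Same-numbered libraries deviated together over all genes (r = 0.273, 0.280 and 0.236), so the numbers were taken as pairs from these values, since the labels name no shared batch. Motifs were searched in Python 3.11.15. The search was tested on planted motifs. The quasi-likelihood fit with and without the block, DESeq2, limma-voom and the exact test were tested on simulated counts that held no replicate effect. The other filters and scalings, and fits with libraries left out, were not.

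The members, and the lists of other clock, light input, clock output and marker genes, were chosen with earlier results of these data known. Named were all members, *WRI1*, and up to 4 called genes per further list by size of change. *CKB3*, *LWD1*, *BBX24*, *FAR1*, *PIF3*, *AGL62*, *FWA*, *TT10*, *BAN*, *MUM4*, *TTG2*, *EPR1*, *ZOU*, *CRU3*, *CRA1*, *SESA3*, *LEC1*, *ABI3*, *FUS3* and *OLEO1* were named after their values were seen.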

Additional observations from a re-analysis of the deposited data

How the results depend on the processing

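The call of *ELF4* kept its direction in all alternatives run, and was lost only when an *atwri1-1* library was left out (below) and at an adjusted p of at most 0.01. Clock genes called lower numbered 0 at that stricter p, 2 with no fold minimum and 2 without both replicate 1 libraries, and between 0 and 2 with a library left out. Clock genes called higher, 0 in the fit reported, numbered 1 with the exact test (*ASG4*, 1.52, adjusted p = 0.0405), 1 with the replicate block (*CCA1*, 1.03), 1 with no fold minimum, 2 without both replicate 1 libraries, and between 0 and 2 with a library left out. The block changed the call of no other clock gene. All genes called lower numbered 544 at the stricter p and between 545 and 1087 with a library left out. All genes called higher numbered 344 with library size only, 317 with DESeq2, 308 with the exact test, 371 without both replicate 1 libraries, 72 at the stricter p, 485 with no fold minimum, and between 74 and 364 with a library left out. The causes were not tested. Library size only moved the median log2 fold change of all genes from -0.0070 to 0.167, and clock genes higher in all 3 pairs from 8 to 15 and lower in all 3 from 12 to 9.

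Log2 fold changes that turned sign were of genes that were not called. With library size only they were *RVE4* 0.081, *AT4G01280* 0.13 and *LNK2* 0.20, beside that shifted median. *LNK2* was 0.00069 with RLE scaling, 0.0061 with DESeq2, 0.050 with limma-voom and 0.094 with the block. *CDF3* was -0.053 with limma-voom and *GRP8* -0.013 with no filter. Without both replicate 1 libraries *AT5G52660* was -0.032, *AT4G01280* 0.051, *LNK2* 0.24, *PRR5* -0.014, *ZTL* -0.12 and *LKP2* -0.015. With a library left out, the ranges were -0.55 to 1.87 for *RVE8*, -0.21 to 0.061 for *RVE4*, -0.11 to 0.024 for *AT4G01280*, -0.57 to 0.80 for *LNK2*, -0.37 to 0.012 for *LNK3*, -0.034 to 0.33 for *PRR5*, -0.62 to 0.078 for *TOC1*, -0.074 to 0.087 for *ZTL*, -0.41 to 0.47 for *CDF3* and -0.14 to 0.19 for *GRP8*. For *ELF4* the range was -2.19 to -1.68. Depth limits *PRR9*, *RVE8*, *ASG4*, *AT1G69570*, *CDF1*, *PIF4*, *PIF5*, *AGL62*, *FWA* and *CRU3*, which rest on under 10 reads in at least 1 library. The evening element share went from 30.6% to 27.8% with the bases after the start left out.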
